A study of Mus musculus with 6 samples.

Results

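Described here are 10 antimicrobial and acute-phase genes, Saa1, Saa2, Saa3, Retnlb, Reg1, Reg3a, Reg3b, Reg3g, Lcn2 and Nos2, out of 55331 genes in the authors' table. They were picked by name with their levels in these libraries already known, so the contrast between genotypes is a description for them and supports nothing. All 10 were found by symbol, and the authors tested 9 of them among 15460 genes; Saa2 was not tested. Libraries of polyA RNA were made from small intestinal crypt cells of C57BL/6 mice aged 60 days, after the villi had been scraped off. The 3 libraries labelled WT have the genotype Ptbp1f/f, and the 3 labelled PTBP1_KO have the genotype Ptbp1f/f;Vil-creER+/-, in which villin sequence drives a tamoxifen-dependent Cre recombinase in intestinal epithelium. Both genotypes were given 100 mg/kg tamoxifen on each of 2 days, and crypts were collected 20 h after the later dose. Only PTBP1_KO carried Cre, so the presence of Cre and the loss of Ptbp1 cannot be told apart. PTBP1 binds pyrimidine-rich RNA and regulates splicing, and the series asks about its part in epithelial regeneration.

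Reg proteins are small secreted C-type lectins, and those of the Reg3 branch bind bacterial surfaces and help to keep microbes away from the epithelium. Serum amyloid A proteins carry lipids and retinol and are made in the acute-phase response. IL-22 from lymphoid cells of the mucosa acts through STAT3 in epithelial cells and is a known inducer of Reg3 and Saa genes. Retnlb encodes a resistin-like protein of goblet cells, Lcn2 a lipocalin that withholds iron by binding bacterial siderophores, and Nos2 the inducible nitric oxide synthase.

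Levels are FPKM, fragments scaled to transcript length and library size, with 1 value per genotype over its 3 libraries. No spread between mice can be computed from them, and their depth is unknown. Ptbp1 itself was listed at 230.0 FPKM (WT) and 123 FPKM (PTBP1_KO), with q = 0.0125 in the authors' deposited table. Of the tested genes, the authors' deposited table called 83 at q below 0.05, which is 0.537%, with 60 higher in PTBP1_KO (0.388%) and 23 lower (0.149%).

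Reads per library exist here only in the splicing tables, whose headers do not say which set of 3 libraries is WT, so the spread over the 6 libraries is given without genotype. For each of the 7 genes with a skipped exon event, reads on its most covered event were scaled to the library's reads over skipped exon events of all other genes, a total between 31509211 and 38543058. Events overlap, so a read can count more than once, and different genes are not set against each other on this scale. Saa1 (139 nt exon, chr7:46741256-46741394) had a lowest value of 0.879, a median of 5.75 and a highest value of 18.2 scaled reads, from 28 to 573 reads. Its lowest library thus lay apart from the other 5, and the highest stood 20.7 times above it. A ratio as large was found in 0.0955% of 7334 genes with a mean of at least 100 reads, whose median ratio was 1.44.

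Reg3b ranged from 2171 over a median of 5965 to 7835 scaled reads, a ratio of 3.61. Reg3g ranged from 970.2 over 2934 to 3717, a ratio of 3.83. Ratios as large were found in 0.695% and 0.627% of genes. Nos2 spread from 6.03 over 10.9 to 26.6 (ratio 4.41) and Reg1 from 40.1 over 66.9 to 109.5 (ratio 2.73), while Reg3a and Lcn2 spread least, with ratios of 1.87 and 1.77. A single library was the lowest for 5 of the 7 genes, Saa1, Reg3b, Reg3g, Lcn2 and Nos2, and ranked 3 from the bottom for Reg1 and 4 for Reg3a. Its total of skipped exon reads was 96.0% of the median library. Another library was the highest for Saa1, Reg3b and Reg3g. Neither can be left out of the group values below, and their part in the listed differences was not tested.

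**Figure D1:**
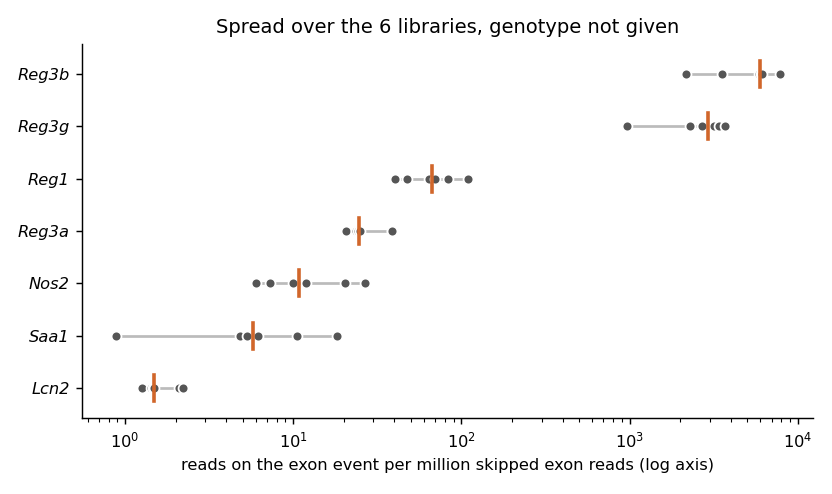
Each point is 1 of 6 libraries, whose genotype the tables do not give; the log axis shows reads on the most covered skipped exon event of the gene, scaled to the library's skipped exon reads, and the orange bar is the median. The lowest Saa1 library is at 0.879 against a median of 5.75, and the lowest Reg3g library at 970.2 against 2934.

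Among the 10 genes, Saa1 and Retnlb were higher and Reg1 was lower in PTBP1_KO at q below 0.05 in the authors' deposited table, where 0.537% of tested genes were called. Reg3b and Reg3g, the most abundant of them, were listed at 1.78 and 1.79 times their WT levels and did not pass. Of the 9 tested genes 7 were listed higher, as were 54.7% of all tested genes. An unadjusted p below 0.05 was given to 6 in the authors' deposited table, 5 higher and 1 lower, against 4.35% of tested genes in either direction, 2.69% higher and 1.66% lower. The median of log2((PTBP1_KO + 1)/(WT + 1)) on FPKM was 0.35 over the 10 genes, which include the untested Saa2. It was 0.53 over the 9 tested ones and 0.02 over all tested genes. Nothing is read from these counts, since the genes were chosen on this contrast. In bulk RNA, fewer cells of a type and less RNA per cell cannot be told apart.

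**Figure D2:**
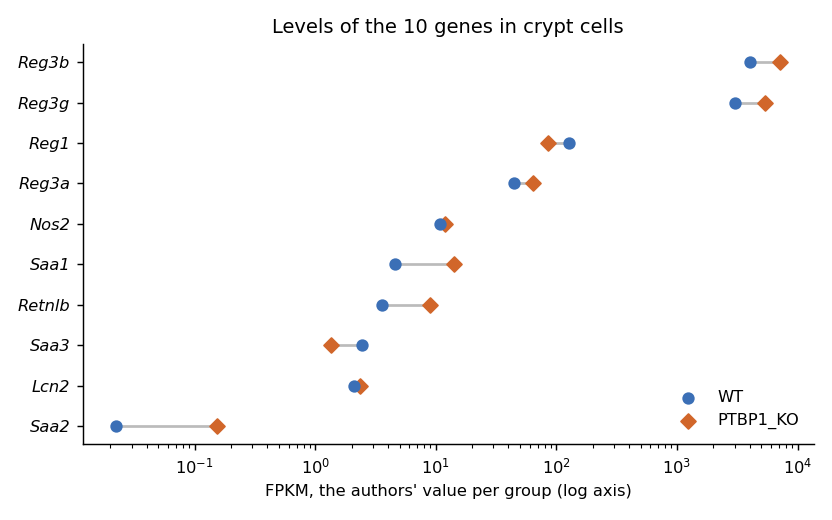
The authors' FPKM value of each gene in WT (blue circles) and PTBP1_KO (orange diamonds) on a log axis, ordered by WT level, without error bars because there is 1 value per group. Reg3b and Reg3g lie far to the right in both groups, at 4063 and 3015 FPKM in WT, and Saa2 far to the left at 0.0223 FPKM.

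The 4 Reg genes made up nearly all of the RNA of the set, with sums of 7248 FPKM (WT) and 12759 FPKM (PTBP1_KO), or 1.250% and 2.11% of the FPKM of all listed genes. Reg3b, whose lectin acts mainly on Gram-negative bacteria, was listed at 4063 FPKM in WT, rank 2 among tested genes, and at 7214 FPKM in PTBP1_KO, rank 1. Reg3g, whose lectin binds peptidoglycan of Gram-positive bacteria, was listed at 3015 FPKM in WT (rank 6) and 5396 FPKM in PTBP1_KO (rank 3). The ratio of Reg3b to Reg3g was 1.35 in WT and 1.34 in PTBP1_KO, so both were listed higher in nearly the same proportion. For Reg3b the authors' deposited table gave a log2 fold change of 0.83 (p = 0.0263, q = 0.849), and for Reg3g one of 0.84 (p = 0.0101, q = 0.531).

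Reg3a, a further lectin of the Reg3 branch, was at 44.2 FPKM in WT and at 64.5 FPKM in PTBP1_KO, for which the authors' deposited table gave q = 0.07401. It lies just outside the threshold, and Retnlb, at q = 0.0466 in the authors' deposited table, just inside. Reg1, a Reg protein known mainly from pancreas and regenerating tissue, fell from 126 to 84.9 FPKM. Its log2 fold change was -0.57 (q = 0.0125), as given by the authors' deposited table. Reg3b was thus listed at 32.2 times the level of Reg1 in WT and at 85.00 times in PTBP1_KO.

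**Figure D3:**
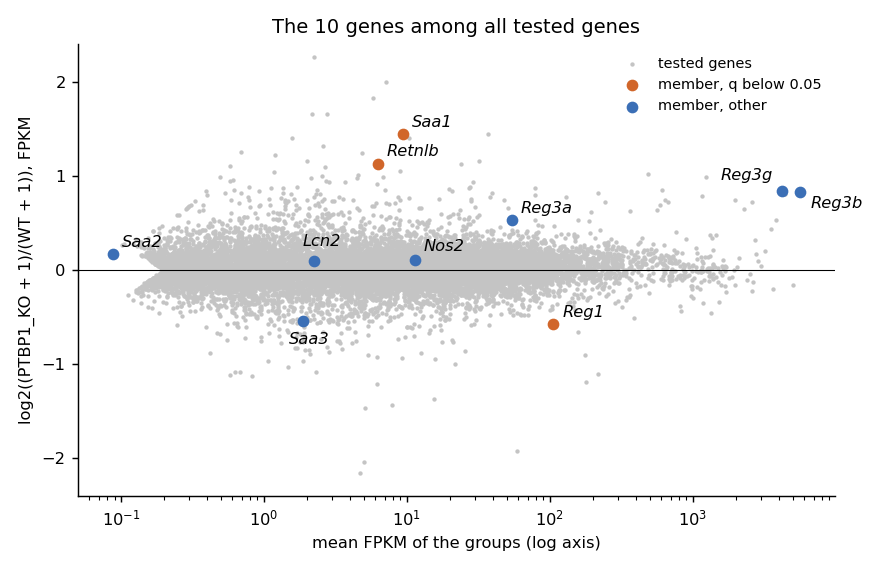
Grey points are tested genes and coloured points the 10 genes (orange: q below 0.05), with the mean FPKM of the groups on a log horizontal axis and log2((PTBP1_KO + 1)/(WT + 1)) on the vertical axis; 1 tested gene lies beyond the limit of 2.4. Reg3b (0.83) and Reg3g (0.84) sit at the right end, Saa1 (1.44) and Retnlb (1.13) above the bulk and Reg1 (-0.57) below it.

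The order of the Reg cluster on chromosome 6 is Reg3b (78370657 to 78373466, plus strand), Reg3d, Reg3a (78380709 to 78383827, plus), Reg2, Reg1 (78422711 to 78428667, plus) and Reg3g (78466269 to 78468872, minus), over 98.2 kb of mm10. Their log2 ratios with a pseudocount of 1, in that order, were 0.83, -0.17, 0.53, -0.04, -0.57 and 0.84. Both ends of the cluster were therefore listed higher. Between them lay Reg3a, also listed higher, and Reg3d, Reg2 and Reg1, listed lower, of which only Reg1 passed. The relatives outside the set did not pass or were not tested: Reg3d (WT 1.69, PTBP1_KO 1.398 FPKM), with p = 0.489 in the authors' deposited table, and Reg2, listed at 0.0304 FPKM in WT and at 0 in PTBP1_KO. Reg4, on chromosome 3 (98222156 to 98236748), had the values WT 46.3, PTBP1_KO 62.6 FPKM, with p = 0.006900 and q = 0.432 in the authors' deposited table.

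**Figure D4:**
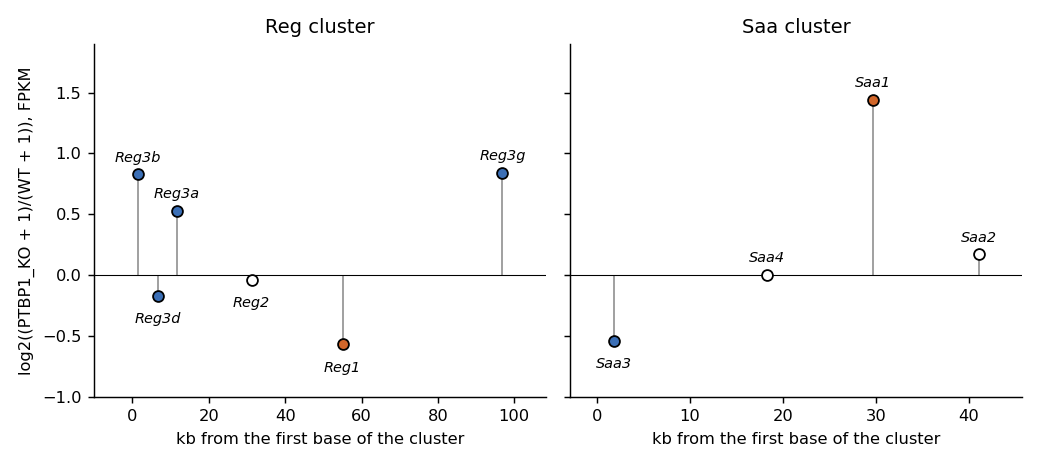
Genes of the Reg cluster (left) and Saa cluster (right) by the distance of their midpoint from the first base of the cluster in kb, with log2((PTBP1_KO + 1)/(WT + 1)) on the vertical axis; orange points had q below 0.05, blue points were tested and did not pass, open points were not tested. Reg1 at -0.57 lies between Reg3a at 0.53 and Reg3g at 0.84, and Saa1 at 1.44 between Saa4 at 0 and Saa2 at 0.17.

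Upstream sequences of 3 Reg genes are shown because Reg3b and Reg3g kept their ratio across genotypes while Reg1, from the same cluster, was listed the other way. Each window holds the 250 bases before the RefSeq start site (GRCm38.p6), 5′ to 3′ on the gene's strand, with capitals where a searched motif matched. Reg3b is chr6:78370635-78370884 (plus), Reg3g is chr6:78468875-78469124 (minus) and Reg1 is chr6:78425733-78425982 (plus); the Reg3b and Reg1 windows lie partly or wholly inside the gene spans given above, which start further upstream.
Reg3b: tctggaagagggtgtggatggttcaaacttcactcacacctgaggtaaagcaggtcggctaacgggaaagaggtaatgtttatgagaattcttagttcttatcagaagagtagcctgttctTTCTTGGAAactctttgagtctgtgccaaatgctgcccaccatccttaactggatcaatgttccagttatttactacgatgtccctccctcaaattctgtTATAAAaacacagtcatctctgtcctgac
Reg3g: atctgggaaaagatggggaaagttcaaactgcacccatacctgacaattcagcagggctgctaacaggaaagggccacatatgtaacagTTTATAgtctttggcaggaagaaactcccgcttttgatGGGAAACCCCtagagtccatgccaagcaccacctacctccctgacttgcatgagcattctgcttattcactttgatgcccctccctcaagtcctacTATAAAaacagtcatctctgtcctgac
Reg1: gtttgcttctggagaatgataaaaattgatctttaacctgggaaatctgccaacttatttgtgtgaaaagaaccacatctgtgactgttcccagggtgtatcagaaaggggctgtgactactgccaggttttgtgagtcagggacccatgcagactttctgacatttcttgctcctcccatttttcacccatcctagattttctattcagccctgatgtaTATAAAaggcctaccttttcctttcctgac
Reg3b and Reg3g were 69.2% identical over these bases, Reg1 and Reg3b 52.4%, and Reg1 and Reg3g 53.6%. The window of Reg3a, which was listed higher, was 49.2% identical to that of Reg3b and 57.2% to that of Reg3g. For Reg3d, listed lower, identity was 57.6% to each of these 2. A link between upstream sequence and the listed direction was not tested. The motifs, searched on both strands, were TTCNNNGAA for STAT factors, TTGCNNAA for C/EBP factors, TATAAA for the TATA box, and the NF-kB consensus; no matches overlapped. TATAAA began 29 bases before the start of Reg3b, 27 before Reg3g and 30 before Reg1, with a further match on the other strand at 161 in Reg3g, and 12.4% of 32851 promoters held this motif in windows of the same length. STAT letters (TTCTTGGAA) began 129 bases before Reg3b, where 7.02% of promoters held a match, and NF-kB letters (GGGAAACCCC) 123 bases before Reg3g, where 7.25% did. Reg3d, whose window is not printed, also had a STAT match (TTCCCAGAA), which began 238 bases before its start.

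Coding sequences of Reg3b and Reg3g are shown in part because their reads come from related genes. Of 525 coding bases in Reg3b and 522 in Reg3g, 399 were identical (76.0%) in GENCODE M21 transcripts. Bases 91 to 240 of Reg3b follow with the aligned bases of Reg3g, and capitals mark the 34 that differ.
Reg3b: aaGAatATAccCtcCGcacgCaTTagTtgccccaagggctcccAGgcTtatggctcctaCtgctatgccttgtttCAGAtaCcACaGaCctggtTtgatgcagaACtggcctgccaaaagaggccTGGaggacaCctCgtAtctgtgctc
Reg3g: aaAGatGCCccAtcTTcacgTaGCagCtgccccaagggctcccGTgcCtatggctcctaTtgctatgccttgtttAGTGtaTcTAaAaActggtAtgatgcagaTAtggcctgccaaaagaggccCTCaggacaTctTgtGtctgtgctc
No run of 75 bases was shared between any pair of the 7 Reg transcripts compared.

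Of the serum amyloid A genes, Saa1 rose, Saa3 did not pass and Saa2 was close to 0. Saa1, an acute-phase apolipoprotein (chromosome 7, 46740497 to 46742980, minus strand), was at 4.58 FPKM in WT and 14.1 FPKM in PTBP1_KO. The log2 fold change was 1.62 with q = 0.0125 in the authors' deposited table, which lists no lower q. Saa3, a form made outside the liver (46711998 to 46715700, minus), was listed lower, WT 2.42, PTBP1_KO 1.35 FPKM, with a log2 fold change of -0.85 and p = 0.0741 according to the authors' deposited table. Saa1 was thus listed at 1.89 times Saa3 in WT and 10.5 times in PTBP1_KO. Saa2, the closest relative of Saa1 (46751790 to 46754313, plus), had 0.0223 and 0.153 FPKM, and Saa4 was listed at 0 in both groups.

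Sequences of Saa1 and Saa2 are printed because the genes are nearly identical, so that reads could be split between them, and yet Saa1 was listed at 205.6 times Saa2 in WT and 92.5 times in PTBP1_KO. The windows before the RefSeq start sites (GRCm38.p6) are chr7:46742981-46743230 on the minus strand for Saa1 and chr7:46751583-46751832 on the plus strand for Saa2, with the C/EBP match in capitals.
Saa1: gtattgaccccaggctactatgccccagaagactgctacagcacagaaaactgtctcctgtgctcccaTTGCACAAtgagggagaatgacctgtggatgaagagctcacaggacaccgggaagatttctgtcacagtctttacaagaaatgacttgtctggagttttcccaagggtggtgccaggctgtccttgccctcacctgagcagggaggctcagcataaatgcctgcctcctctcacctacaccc
Saa2: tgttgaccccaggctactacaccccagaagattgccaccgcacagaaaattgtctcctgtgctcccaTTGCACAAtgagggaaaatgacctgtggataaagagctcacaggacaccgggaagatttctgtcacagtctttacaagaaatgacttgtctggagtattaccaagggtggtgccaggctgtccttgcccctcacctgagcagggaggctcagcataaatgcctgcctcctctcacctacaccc
These windows were 95.2% identical. TTGCACAA began 182 bases before Saa1 and 183 before Saa2, and 9.56% of promoters held a C/EBP match. Saa3, whose window was 53.2% identical to that of Saa1, had one at 99 bases (TTATGCAA). Matches were also found in Lcn2 and Reg3a, so that 5 of the 8 genes with a promoter entry had one. In the coding sequence 348 of 366 bases were identical (95.1%), and bases 91 to 240 are given with the 9 differing bases of each in capitals.
Saa1: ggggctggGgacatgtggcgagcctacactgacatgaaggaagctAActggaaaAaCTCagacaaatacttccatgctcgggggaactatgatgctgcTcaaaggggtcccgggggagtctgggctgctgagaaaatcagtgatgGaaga
Saa2: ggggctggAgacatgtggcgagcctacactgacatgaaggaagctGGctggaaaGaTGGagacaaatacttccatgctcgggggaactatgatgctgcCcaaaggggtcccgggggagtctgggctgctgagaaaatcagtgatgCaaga
Of the 75-base windows of the Saa1 transcript, 0.374% occurred unchanged in Saa2. Read length and the handling of mismatches are not given in the sources used here, so the split of reads between Saa1 and Saa2 is uncertain.

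Retnlb (chromosome 16, 48816856 to 48818892, plus strand) rose 2.52 times, from 3.56 to 8.965 FPKM, a log2 fold change of 1.33 in the authors' deposited table. Other resistin genes were at or near 0: Retn and Retnlg were listed at 0 in both groups, and Retnla at 0.0193 FPKM in WT and 0 in PTBP1_KO. Lcn2 (chromosome 2, 32384633 to 32388252, minus strand) and Nos2 (chromosome 11, 78920787 to 78960254, plus strand), both known from inflamed epithelium, were listed at 1.11 and 1.09 times their WT levels. Lcn2 was at 2.11 FPKM in WT and 2.34 FPKM in PTBP1_KO (p = 0.652 in the authors' deposited table). Nos2 was at 10.9 FPKM in WT and 11.85 FPKM in PTBP1_KO (p = 0.464 in the authors' deposited table). Without Reg3b and Reg3g, the other 8 genes summed to 194.0 FPKM in WT and 188.1 FPKM in PTBP1_KO. These sums hide opposite directions. Reg1 held the largest part, at 126 FPKM in WT and 84.9 FPKM in PTBP1_KO. Reg1 and Saa3 were listed lower, and the rest of the 8 higher.

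Splicing was not used in choosing the genes. The tables held 27 events in 7 of them, 16 in Reg3b, 4 in Lcn2, 3 in Reg3g and 1 each in Saa1, Reg1, Reg3a and Nos2. By the MATS test that the authors' deposited table reports, 0 of the 27 were changed (FDR below 0.05, a difference of at least 0.1 and a mean of at least 20 reads, which 26 had), and 0 had an unadjusted p below 0.05. Of 53918 events with enough reads, 1.56% were changed. The smallest p was 0.0958 in the authors' deposited table, for mutually exclusive Reg3g exons of 138 and 119 nt (chr6:78467476-78467613 and chr6:78467799-78467917) with a difference of 0.034. Reg3b skipped its 138 nt exon (chr6:78372088-78372225) in 33 of 1076783 reads over the 6 libraries. Reg3d, outside the set, had a changed 138 nt exon (chr6:78377110-78377247): the authors' deposited table gave a difference of 0.173 (FDR = 0.00419), from a mean of 34.5 reads per library and 23 in the lowest. The sign of these differences has no genotype attached.

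Position was not used in the choice either. Within 100 kb of the 10 genes lay 37 others, of which 22 were tested. By nearest gene, 9 of the tested ones lay at the Saa locus, 8 at Lcn2 and 3 at Nos2. The Reg and Retnlb loci were covered by only 1 tested neighbour each. By Cuffdiff in the authors' deposited table, 0 of the 22 were called and 0 had an unadjusted p below 0.05, against 0.537% and 4.35% of all tested genes. Their log2 ratios ran from -0.21 to 0.30 with a median of 0.04. The nearest tested neighbour of each locus was Saal1, 1.32 kb from Saa3 (WT 4.48, PTBP1_KO 3.95 FPKM), Reg3d, 1.84 kb from Reg3a, 1110008P14Rik, 2.70 kb from Lcn2 (WT 21.4, PTBP1_KO 22.5 FPKM), Lgals9, 2.72 kb from Nos2 (WT 424, PTBP1_KO 456.5 FPKM), and Trat1, 44.8 kb from Retnlb (WT 0.1996, PTBP1_KO 0.286 FPKM).

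Other genes of the pathways were read from 12 lists with 147 genes, 100 of them tested and none of them among the 10. Ang4 and Mptx2 were higher at q below 0.05 in the authors' deposited table and 0 genes were lower; the median log2 ratio was 0.07, against 0.02 over all tested genes. IL-22, IL-6 and STAT3 signalling had 0 calls among 16 tested (median 0.10). The receptor chains of IL-22 were Il22ra1 (WT 12.35, PTBP1_KO 15.5 FPKM) and Il10rb (WT 52.2, PTBP1_KO 51.3 FPKM), with p = 0.03445 and q = 0.962 for Il22ra1 in the authors' deposited table. Other abundant genes of the list were Bcl3 (WT 50.8, PTBP1_KO 48.9 FPKM), a nuclear NF-kB partner, Stat3 (WT 21.9, PTBP1_KO 24.96 FPKM) and Socs3 (WT 35.25, PTBP1_KO 39.6 FPKM), a feedback inhibitor. Il22 itself was nearly absent, at 0.0238 FPKM in WT and 0.0228 FPKM in PTBP1_KO.

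Of the other epithelial targets of IL-22 and STAT3, 7 of 7 tested were listed higher (median 0.30) and 0 passed, while 54.7% of all tested genes were listed higher. This list shares 1 gene, Socs3, with the IL-22, IL-6 and STAT3 list and 1 with the NF-kB, IL-1 and IL-17 list. Duox2 and Duoxa2, which form an oxidase that makes hydrogen peroxide, were at 45.96 and 33.96 FPKM in WT and at 60.2 and 44.7 FPKM in PTBP1_KO. Their q was 0.787 and 0.518 in the authors' deposited table. Il18, an epithelial cytokine, is counted among the 7 but was at 73.5 FPKM in both groups (ratio 1.001).

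The list of other antimicrobial genes had 18 tested, 2 called higher and 0 lower (median 0.13). Ang4, a ribonuclease of Paneth cells, rose from 435 to 786 FPKM and Mptx2, a pentraxin, from 321 to 652 FPKM, both with q = 0.0125 in the authors' deposited table. Lyz1, the Paneth cell lysozyme, did not pass (WT 1471, PTBP1_KO 2470.0 FPKM, p = 0.05215 in the authors' deposited table). Neither did Zg16 (WT 2772, PTBP1_KO 2957 FPKM), a goblet cell lectin, or Lypd8 (WT 2424, PTBP1_KO 3023.5 FPKM), which keeps flagellated bacteria from the mucosa. Dmbt1 was listed at 0 in both groups with the status HIDATA, yet 1 of its splicing events had a mean of 131181 reads per library, so that 0 is no level.

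The remaining lists held 0 called genes by Cuffdiff in the authors' deposited table: NF-kB, IL-1 and IL-17 (19 tested, median 0.03), nitric oxide and arginine (10, 0.11), metal withholding (7, 0.08), receptors and partners (8, 0.09), retinoids (7, -0.06) and type 2 cytokines (6, -0.07). Of 18 other acute-phase genes 2 were tested and 15 were below 0.1 FPKM in both groups, among them Hp and the fibrinogen genes Fga, Fgb and Fgg. C3, the central complement protein, was the most abundant (WT 2.91, PTBP1_KO 2.601 FPKM). The most abundant genes of the NF-kB, IL-1 and IL-17 list were Il17rc (WT 76.6, PTBP1_KO 54.9 FPKM), Nfkbia (WT 54.5, PTBP1_KO 57.2 FPKM) and Cebpb (WT 40.5, PTBP1_KO 37.3 FPKM). Those of the nitric oxide and arginine list were Arg2 (WT 139, PTBP1_KO 151 FPKM), Irf1 (WT 114, PTBP1_KO 118.5 FPKM) and Ifngr1 (WT 78.7, PTBP1_KO 87.8 FPKM). Iron storage and uptake genes were Fth1 (WT 1624, PTBP1_KO 1645 FPKM), Ftl1 (WT 733, PTBP1_KO 773 FPKM) and Tfrc (WT 70.6, PTBP1_KO 75.6 FPKM). None of them passed, nor did the retinol carrier Rbp2 (WT 2482, PTBP1_KO 2306 FPKM), the resistin receptor Cap1 (WT 95.8, PTBP1_KO 97.9 FPKM), or Stat6 (WT 45.8, PTBP1_KO 49.2 FPKM) of type 2 signalling.

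Cell type markers were read beside these results. Olfm4, a crypt stem cell marker, was at 618 FPKM in WT and 578 FPKM in PTBP1_KO. The stem cell (median -0.07), goblet cell (0.01), enterocyte (0.03) and colon lists (0.02) had 0 called genes by Cuffdiff, and 0 at an unadjusted p below 0.05 in the authors' deposited table. Of 9 Paneth cell markers 3, Defa17, Mmp7 and Ang4, were higher in the authors' deposited table and 0 were lower; the other 6 did not pass. The sums over the 9 were WT 9823, PTBP1_KO 15891 FPKM, with no marker at 0. This list shares 4 genes with the antimicrobial list. Of the T cell and innate lymphoid markers, Cd8a, Gzma and Gzmb, 3 of 8 tested, were higher in the authors' deposited table and 0 lower (WT 105, PTBP1_KO 182 FPKM), while Il22 and Il17a were below 0.1 FPKM in both groups. Of the regional markers, 1 of 6 of ileum passed, Slc10a2, which was higher (WT 3.825, PTBP1_KO 6.06 FPKM), and 1 of 7 of proximal intestine, Pdx1, which was lower (WT 2.32, PTBP1_KO 0.629 FPKM), both with q = 0.0125 in the authors' deposited table. The sums were WT 824, PTBP1_KO 989 FPKM for ileum and WT 2666.5, PTBP1_KO 2579 FPKM for proximal intestine. Single genes made up most of them, Fabp6 of ileum (WT 567, PTBP1_KO 682 FPKM) and Fabp1 of proximal intestine (WT 2551, PTBP1_KO 2470 FPKM). The proximal list shares 2 genes with the enterocyte list, Fabp1 among them. The part of these cell types and regions in the levels of the 10 genes was not tested.

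Gcg was the 1 called gene of 7 enteroendocrine markers, rising from 35.6 to 60.4 FPKM in the authors' deposited table (sums WT 291, PTBP1_KO 354 FPKM). Tuft cell markers were listed lower in 6 of 6 cases (median -0.42), as were 7005 of all 15460 tested genes. They had 0 calls and 4 at an unadjusted p below 0.05 by Cuffdiff in the authors' deposited table. Neutrophils also make Lcn2, and all 8 of their markers were below 0.1 FPKM in both groups, 3 of them at 0 in both (sums WT 0.153, PTBP1_KO 0.179 FPKM). Acinar cells of pancreas make Reg1, and 8 of their 11 markers were below 0.1 FPKM in both groups, 3 of them at 0 in both. The exceptions included Clps, a colipase, which rose from 57.6 to 101 FPKM in the authors' deposited table, and Cela1 (WT 6.07, PTBP1_KO 6.72 FPKM). All 6 adipocyte markers were below 0.1 FPKM in both groups. Of the 6 hepatocyte markers 4 were tested, with Serpina1b the most abundant (WT 4.74, PTBP1_KO 6.35 FPKM), while Alb was below 0.1 FPKM in both groups. The macrophage (median 0.18), B and plasma cell (0.29), fibroblast and muscle (-0.21) and hepatocyte lists (0.11) had 0 called genes by Cuffdiff, with 1, 2, 4 and 0 at an unadjusted p below 0.05 in the authors' deposited table.

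**Figure D5:**
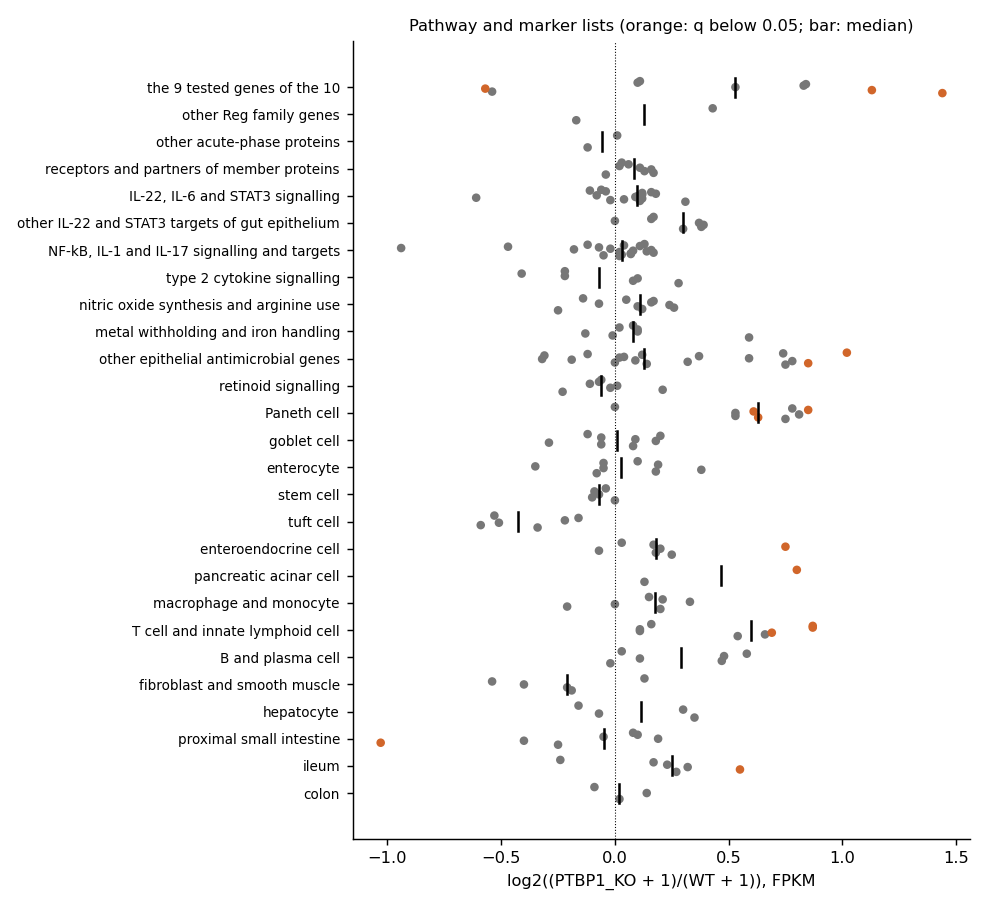
Each point is a tested gene, with log2((PTBP1_KO + 1)/(WT + 1)) on the horizontal axis, in rows for the 9 tested genes of the 10, the pathway lists and the marker lists; orange marks q below 0.05 and the black bar is the median of the row. The Paneth cell and T cell rows lie mostly right of 0, with medians of 0.63 and 0.60, and the tuft cell row left of it at -0.42.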

How the data were processed

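PolyA RNA of crypt cells from 3 WT and 3 PTBP1_KO samples was sequenced. The submitters' processing notes name STAR 2.6.1d, Trimmomatic 0.38, bcl2fastq 2.20, Cuffdiff, Cufflinks and the build mm10. FPKM values, 1 per gene and group, come from the authors. The log2 fold change, p-value and q-value are the authors' own too, per the file headers, and recomputed Benjamini-Hochberg values differ from these q-values by at most 5.01e-07. Splicing tables in the MATS layout hold deposited read counts per library, an FDR and an inclusion level difference, a score from the authors. Their headers give the sets of libraries no genotype, and 10 columns of inclusion levels were not used. Nothing says whether samples were separate mice, so p-values measure only the spread between these samples.

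The 10 genes and the 12 pathway and 17 marker lists were chosen with earlier results of these data known. Medians use a pseudocount of 1 FPKM, and no test was refitted. The rule for names took the 10 genes, Ptbp1, their family genes, called genes and the most abundant genes of each list, and the nearest tested neighbours; the text names only some of the abundant ones. Il22ra1, Stat3, Il22, Il17a, Dmbt1, Alb and the acute-phase genes below 0.1 FPKM were named after their values were seen. Upstream windows came from RefSeq (8 of the 10 genes matched), transcripts from GENCODE M21 (55150 of 55331 identifiers matched without version). Software was Biopython 1.88, pandas 2.3.3, matplotlib 3.10.9 and numpy 2.4.6 on Python 3.11.15, and the p-value adjustment was tested on simulated data.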

Additional observations from a re-analysis of the deposited data

How the results depend on the processing

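At q below 0.01, 0 genes were called in all, 0 among the 10 genes and 0 in the pathway lists, because no q of Cuffdiff in the authors' deposited table is below 0.0125; at an unadjusted p below 0.05 there were 672 in all and 6 among the 10. Requiring a log2 fold change of 1 or more in size left 41 genes in all, 29 higher and 12 lower, 2 among the 10 (Reg1 was lost) and 1 in the pathway lists, Mptx2. At q below 0.1 there were 105 in all, 4 among the 10 (with Reg3a) and 3 in the lists, and a minimum of 1 FPKM gave 68, 3 and 2. Calls among neighbours were 0 within 250 kb by Cuffdiff, and therefore also 0 within 50 kb. Changed splicing events in the 10 genes were 0 under the 3 alternatives tried. All 3 kept the FDR limit of 0.05, and the smallest FDR of MATS for these events was 0.547 in the authors' deposited table, so no other count was possible. The median log2 ratio, 0.35 over the 10 genes, lay between 0.32 and 0.69 over 5 alternatives. Some of these left genes out, and 0.32 was the value without Saa1 and Saa2. For Saa2, near 0 in both groups, the log2 ratio was 2.78 in the authors' deposited table, 1.05 with a pseudocount of 0.1 and 0.17 with 1. None of the 10 changed sign under the alternatives run, but these could not test the direction. A pseudocount added to both groups cannot change a sign, and centring on the median of all tested genes moved each value by only 0.02. No paired analysis was possible because the gene table holds 1 value per group, and no library could be left out for the same reason.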

Other observations

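Values of 4 cytokine genes, none of which passed the threshold, are given without a theme. Ccl20, a chemokine that draws lymphoid cells, was at 12.4 FPKM in WT and 6.001 FPKM in PTBP1_KO (p = 0.0006000, q = 0.0901 in the authors' deposited table). Il25, the tuft cell cytokine that starts type 2 responses, was at 0.272 FPKM in WT and 0.0903 FPKM in PTBP1_KO. The alarmins were Il33 (WT 5.74, PTBP1_KO 4.08 FPKM) and Tslp (WT 0.345, PTBP1_KO 0.156 FPKM). Unadjusted p-values were 0.02465 for Il25, 0.0158 for Il33 and 0.0496 for Tslp in the authors' deposited table. These 4 genes were singled out after their values were seen, and others of the lists differed less, such as Cxcl16 (WT 3.36, PTBP1_KO 3.297 FPKM) and Il18 (WT 73.5, PTBP1_KO 73.5 FPKM). Sums of the fibroblast and muscle markers were WT 3.14, PTBP1_KO 1.86 FPKM, with Col3a1 (WT 0.749, PTBP1_KO 0.3275 FPKM) and Dcn (WT 1.505, PTBP1_KO 0.723 FPKM) among them, and their part in the values of Il33 and Tslp was not tested.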
